A study of Mus musculus with 15 samples.

Results

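A set of 9 genes was chosen by name as markers of cholangiocytes and hepatic progenitor cells, and their RNA levels were followed across 15 mouse livers. They were the keratins Krt7, Krt19 and Krt23, the surface proteins Epcam, Muc1, Cd24a and Prom1, the transcription factor Sox9, and Spp1, which encodes the secreted protein osteopontin. A member was measured where a probe set carried its symbol alone in the platform's gene table, and 8 of 9 members met this, out of 19938 genes measured in that way. No probe set carried the single symbol Spp1, so this gene was not analysed here. Each of the 8 had 1 such probe set. Levels are log2 values, so that 1 unit is a doubling.

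Cholangiocytes are the epithelial cells that line the bile ducts, and in a healthy liver they make up a small share of the cells. They carry keratins that mature hepatocytes lack, with Krt7 and Krt19 as the usual histological markers, and they express the adhesion molecule Epcam and the duct-specifying factor Sox9. In chronic liver injury, cells with these markers often spread from the portal tracts into the lobule, which is called a ductular reaction, and the small cells within it that also carry Prom1 or Cd24a are described as hepatic progenitor cells.

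Whole-liver RNA of 15 C57BL/6 mice, all labelled male and 8 weeks old, was hybridised to Affymetrix whole-transcript arrays, 1 array for each mouse and 3 mice in each of 5 groups. NEMO/Jnk1 DKO mice lacked Jnk1 in every cell and carried a floxed NEMO gene deleted by Cre under the albumin promoter, and NEMO/Jnk2 DKO mice had the same deletion with a global loss of Jnk2. Jnk1 KO and Jnk2 KO mice lacked the one or the other of these stress kinases globally, and WT mice carried the floxed NEMO gene undeleted. NEMO is the regulatory subunit through which inflammatory signals reach the IkB kinases and NF-kB. The albumin promoter drives Cre in hepatocytes, so NEMO was to be lost there and kept in the liver's macrophages and other blood-derived cells. Whether bile duct and progenitor cells kept NEMO was not measured here. No group lacked NEMO alone, so its loss was read on the Jnk1-null and Jnk2-null backgrounds, and the labels do not say whether the single knockouts carried floxed NEMO alleles.

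The deposited values had medians between 4.26 and 4.38 in the 15 arrays. Mapk9, which encodes JNK2, lay between 2.39 and 3.28 in the 6 Jnk2-null arrays and between 7.41 and 7.67 in the other 9. Mapk8, which encodes JNK1, lay between 5.87 and 6.53 in the 6 Jnk1-null arrays and between 6.58 and 7.03 in the other 9. Ikbkg, which encodes NEMO, lay between 6.18 and 6.85 in the 6 double knockouts, and between 7.03 and 7.41 in 7 of the 9 arrays labelled NEMO-intact. The other 2, the arrays labelled Jnk1 KO replicate 1 and Jnk2 KO replicate 3, read 6.75 and 6.24. A pair of genes that was high in all 6 double knockouts, Ly6d at 7.88 to 10.48 and Mmp12 at 7.54 to 8.96, were as high in these 2 arrays and did not pass 5.35 and 4.88 in the other 7. These 2 arrays go against their genotype labels and are called doubted below, and the tests are given with and without them. They were picked by their likeness to the double knockouts, so leaving them out favours differences between double and single knockouts. Xist, which is transcribed in female cells, read 8.68 to 9.17 in 3 arrays (NEMO/Jnk1 DKO replicates 1 and 2 and Jnk1 KO replicate 1) and at most 2.82 in the other 12. Mean levels of 6 hepatocyte genes lay between 11.82 and 12.02 in all arrays.

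Promoter windows were read from RefSeq (build GRCm38.p6) for the 5 of 8 measured members that its table held, as the 250 bases before a transcription start. For Prom1, Muc1, Krt7 and Epcam 1 window each is shown. These windows were chosen because Prom1 was high only in the arrays with high Xist, as described below, and the duct markers Muc1, Krt7 and Epcam were not. Each is printed 5′ to 3′ on the gene's strand, at chr5:44101737-44101986 (minus strand) for Prom1, chr3:89228806-89229055 (plus strand) for Muc1, chr15:101412153-101412402 (plus strand) for Krt7 and chr17:87635729-87635978 (plus strand) for Epcam. Capitals mark a match to 1 of 6 motifs.
Prom1: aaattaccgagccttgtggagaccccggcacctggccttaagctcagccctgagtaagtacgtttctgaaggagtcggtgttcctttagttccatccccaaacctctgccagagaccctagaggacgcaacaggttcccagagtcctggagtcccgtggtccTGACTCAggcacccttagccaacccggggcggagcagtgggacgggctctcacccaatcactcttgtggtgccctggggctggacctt
Muc1: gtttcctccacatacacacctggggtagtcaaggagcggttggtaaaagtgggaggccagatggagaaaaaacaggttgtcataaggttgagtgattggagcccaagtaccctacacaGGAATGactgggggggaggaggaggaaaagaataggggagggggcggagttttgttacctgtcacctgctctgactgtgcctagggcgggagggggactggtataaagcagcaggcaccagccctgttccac
Krt7: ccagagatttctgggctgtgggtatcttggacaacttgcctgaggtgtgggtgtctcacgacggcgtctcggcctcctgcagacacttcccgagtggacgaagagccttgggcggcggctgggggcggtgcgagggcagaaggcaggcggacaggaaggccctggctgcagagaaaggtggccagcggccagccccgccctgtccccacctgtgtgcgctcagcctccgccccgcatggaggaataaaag
Epcam: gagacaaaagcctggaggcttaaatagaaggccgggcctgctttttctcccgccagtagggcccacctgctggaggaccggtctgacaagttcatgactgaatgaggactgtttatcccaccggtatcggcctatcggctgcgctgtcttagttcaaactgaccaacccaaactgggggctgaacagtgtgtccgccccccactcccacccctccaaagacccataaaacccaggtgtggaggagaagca

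The motifs were searched on both strands in all 32851 RefSeq windows of this length. The printed Prom1 window held the AP-1 motif TGANTCA, which 6.75% of all windows held, at bases 163 to 169. Prom1 had 2 windows in the search. The other, at chr5:44094769-44095018 (minus strand) and not printed, held this motif at bases 62 to 68. The share of 6.75% is per window and not per gene. AP-1 is a family of factors whose member Jun is phosphorylated by JNK. The Muc1 window held the TEAD motif GGAATG (12.6% of all windows) at bases 119 to 124. The Krt23 window, which is not printed, held the NF-kB motif (GGG, any 2 bases, TTTCC; 1.41% of all windows) on its minus strand at bases 198 to 207. None of the 6 motifs was found in the Krt7 and Epcam windows, the others searched being the RBPJ motif GTGGGAA (5.42% of all windows), the HNF1 motif GTTAAT (6.43%) and the STAT motif TTCNNNGAA (7.02%). A match is a run of letters and not a binding site.

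Krt7 and Krt19 are intermediate filament proteins of simple epithelia and, in liver, of bile ducts. Krt19 read 6.59, 4.68 and 5.32 in NEMO/Jnk1 DKO livers and 4.96, 4.95 and 5.18 in NEMO/Jnk2 DKO livers. It read 6.34, 4.77 and 4.76 in Jnk1 KO livers, 4.63, 4.89 and 5.96 in Jnk2 KO livers, and 4.54, 5.03 and 5.05 in WT livers. Its 3 highest values were in NEMO/Jnk1 DKO replicate 1 and in the 2 doubted arrays, and all groups overlapped. Krt7 read 5.07, 4.22 and 4.40 in NEMO/Jnk1 DKO livers and 4.44, 4.38 and 4.34 in NEMO/Jnk2 DKO livers. It read 4.39, 3.90 and 4.33 in Jnk1 KO livers, 3.97, 4.30 and 4.78 in Jnk2 KO livers, and 4.23, 4.18 and 4.04 in WT livers. Its 2 highest values were in NEMO/Jnk1 DKO replicate 1 and the doubted Jnk2 KO replicate 3, while all 3 NEMO/Jnk2 DKO livers lay close together and above every WT liver.

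Krt23, a keratin that is low in healthy liver and known to be induced in injured liver, had another pattern. It read 4.25, 3.83 and 4.65 in NEMO/Jnk1 DKO livers, 4.08, 4.34 and 3.89 in NEMO/Jnk2 DKO livers, 4.30, 4.17 and 4.23 in Jnk1 KO livers, 3.77, 4.05 and 4.05 in Jnk2 KO livers, and 3.98, 3.94 and 4.01 in WT livers. The highest value was in NEMO/Jnk1 DKO replicate 3, and the 3 Jnk1 KO livers, the doubted one among them, lay above every WT liver. The mean differed by 0.25 between Jnk1 KO and WT (SE 0.17, limma adjusted p = 0.866).

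Epcam is an epithelial adhesion molecule of cholangiocytes and progenitor cells that hepatocytes lack. It read 4.82, 4.30 and 4.40 in NEMO/Jnk1 DKO livers, 4.38, 4.35 and 4.38 in NEMO/Jnk2 DKO livers, 4.99, 4.35 and 4.02 in Jnk1 KO livers, 4.05, 4.06 and 5.04 in Jnk2 KO livers, and 3.63, 4.35 and 4.30 in WT livers. The 2 doubted arrays held the 2 highest values, with NEMO/Jnk1 DKO replicate 1 next. The SD over 3 livers was 0.01 in NEMO/Jnk2 DKO and between 0.28 and 0.57 in the other groups. Repeated values lay behind the 0.01. NEMO/Jnk2 DKO replicates 1 and 3 held the same value (4.38) in all digits. Replicate 2 held the same value (4.35) as Jnk1 KO replicate 2 and WT replicate 2. The source of these repeats was not tested, so the 0.01 is not read as a trait of the group.

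Muc1, a membrane mucin of the apical surface of duct cells, read 5.42, 4.01 and 4.44 in NEMO/Jnk1 DKO livers and 3.96, 4.13 and 4.25 in NEMO/Jnk2 DKO livers. It read 5.12, 4.05 and 4.04 in Jnk1 KO livers, 4.13, 4.11 and 4.61 in Jnk2 KO livers, and 3.92, 4.15 and 4.09 in WT livers. The same 3 arrays were highest as for Krt19, in the same order, and NEMO/Jnk1 DKO replicate 3 came next for both genes. The groups overlapped.

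Cd24a, a small glycosylated surface protein found on progenitor cells and on many blood cells, had its lowest mean in WT. It read 5.63, 4.38 and 4.0 in NEMO/Jnk1 DKO livers and 3.94, 4.24 and 4.20 in NEMO/Jnk2 DKO livers. It read 5.19, 3.62 and 3.94 in Jnk1 KO livers, 3.49, 3.64 and 5.09 in Jnk2 KO livers, and 3.26, 3.75 and 3.48 in WT livers. All 6 double knockouts lay above all 3 WT livers, as they did for 8.03% of all genes. With the 2 doubted arrays set aside, the double knockouts reached down to 3.94 and the 7 other livers up to 3.94, so that the ranges met. Cd24a is also a marker of other cells, and the macrophage genes described below were high in the same arrays; their part in these values was not tested.

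Prom1 (CD133), a membrane protein of cell protrusions used to sort hepatic progenitor cells, was the member that spread most over the livers. It read 5.97, 5.39 and 3.61 in NEMO/Jnk1 DKO livers, 3.36, 3.56 and 3.65 in NEMO/Jnk2 DKO livers, 6.08, 3.10 and 3.38 in Jnk1 KO livers, 3.50, 3.18 and 3.58 in Jnk2 KO livers, and 3.58, 3.32 and 3.24 in WT livers. The 3 high livers were those with high Xist, at 5.39 to 6.08 for Prom1, and the other 12 lay between 3.10 and 3.65. The doubted Jnk2 KO replicate 3, which had low Xist, read 3.58, and NEMO/Jnk1 DKO replicate 3, also with low Xist, read 3.61. Prom1 passed a minimum of 4.09 (the 40th percentile of all values) in 3 arrays, the same 3, whereas Krt19 and Sox9 passed it in all 15, Krt7 in 12, Epcam in 11, Muc1 in 9, and Cd24a and Krt23 in 6 each.

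Sox9, the transcription factor that specifies bile duct cells in the embryo and marks progenitor cells in the adult, varied least. It read 5.67, 5.55 and 5.77 in NEMO/Jnk1 DKO livers, 5.73, 5.86 and 5.79 in NEMO/Jnk2 DKO livers, 5.70, 5.75 and 5.57 in Jnk1 KO livers, 5.28, 5.66 and 5.72 in Jnk2 KO livers, and 5.34, 5.50 and 5.61 in WT livers. NEMO/Jnk2 DKO had the highest group mean, and its 3 livers lay above every Jnk2 KO and every WT liver. Its range overlapped those of NEMO/Jnk1 DKO and Jnk1 KO. The 3 arrays that were highest for Krt19 and Muc1 did not stand out for Sox9.

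**Figure D1:**
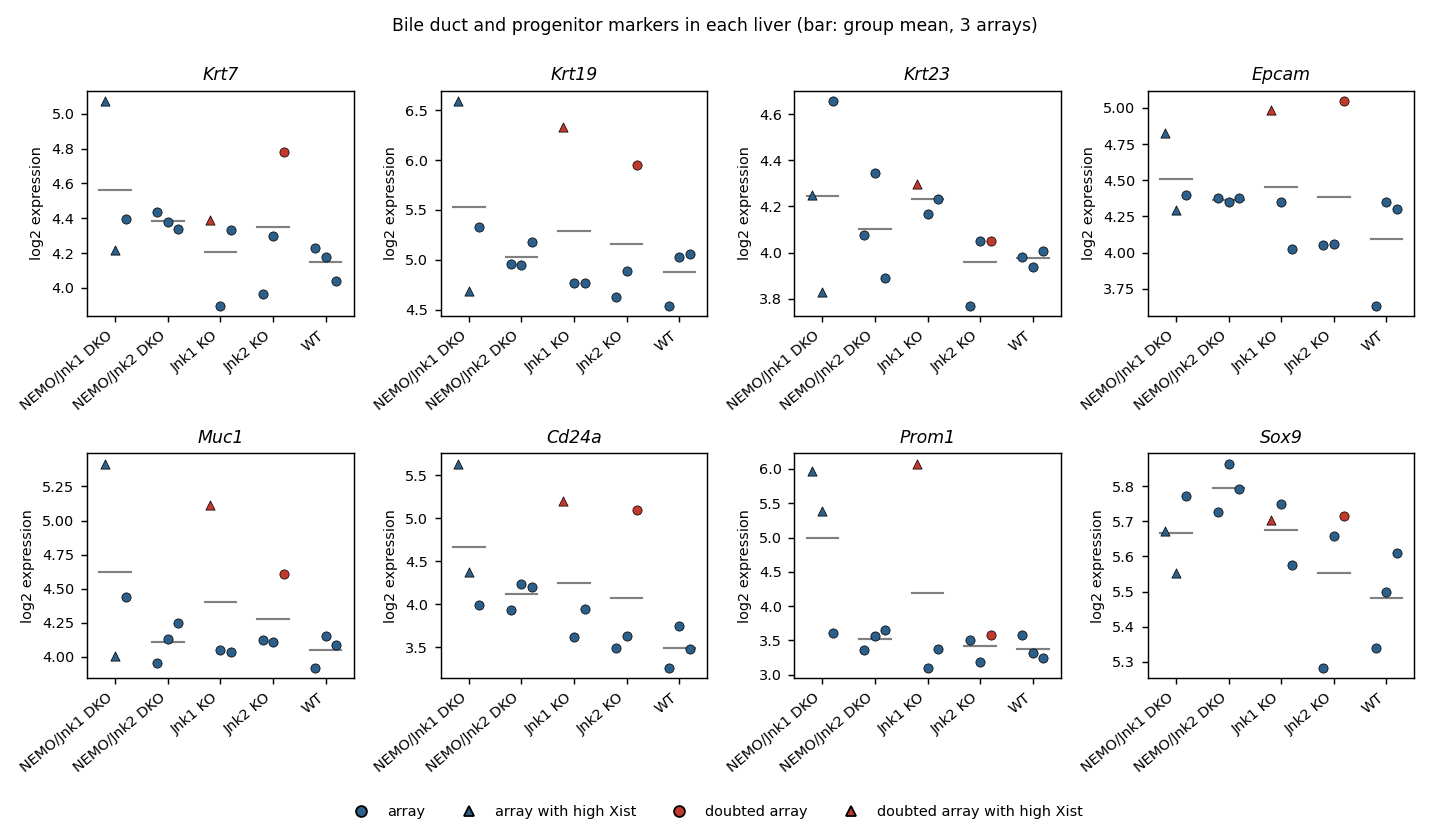
Log2 expression (vertical axes) of the 8 measured markers in each of 15 livers, by group (horizontal axes), with grey bars for group means over 3 arrays, red points for the 2 doubted arrays and triangles for the arrays with high Xist. Krt19, Muc1, Epcam and Cd24a share their 3 highest arrays, and Prom1 is high in the triangles alone.

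By group mean, NEMO/Jnk1 DKO was the highest of the 5 groups for all members but Sox9, with and without the doubted arrays. For Krt19, Krt7 and Epcam this rank leaned on its replicate 1. Its replicates 2 and 3 lay on both sides of the NEMO/Jnk2 DKO mean for these genes (5.03, 4.38 and 4.37). For Prom1 the rank leaned on replicates 1 and 2, which had high Xist, as replicate 3 read 3.61. The lowest group depended on the doubted arrays. As labelled it was WT for all but Krt23, for which it was Jnk2 KO. Without them it was WT for Cd24a only, Jnk1 KO for Krt7, Prom1 and Muc1, and Jnk2 KO for Krt19, Sox9, Epcam and Krt23. Krt19 averaged 5.53 ± 0.97 in NEMO/Jnk1 DKO, 5.03 ± 0.13 in NEMO/Jnk2 DKO, 5.29 ± 0.91 in Jnk1 KO, 5.16 ± 0.70 in Jnk2 KO and 4.87 ± 0.29 in WT (SD, n = 3 each). Cd24a averaged 4.67 ± 0.86 in NEMO/Jnk1 DKO, 4.12 ± 0.16 in NEMO/Jnk2 DKO, 4.25 ± 0.83 in Jnk1 KO, 4.07 ± 0.89 in Jnk2 KO and 3.50 ± 0.24 in WT. As labelled, each pair of neighbours in the order of the group means had overlapping ranges for every member. Without the doubted arrays this held for all pairs but 1: Krt7 read 4.34 to 4.44 in NEMO/Jnk2 DKO and 4.04 to 4.23 in WT, the next group in its order.

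The first question was what the loss of hepatocyte NEMO did to these markers where Jnk1 was also absent. In NEMO/Jnk1 DKO against Jnk1 KO, with all arrays as labelled, 0 of 8 members passed a Benjamini-Hochberg adjusted p under 0.05 in limma, as did 0% of the 19938 genes. At an unadjusted p under 0.05 the counts were 0 of 8 members and 908 genes. The log2 differences ran from -0.01 for Sox9 to 0.80 for Prom1 (SE 0.65), with Cd24a at 0.42 (SE 0.48), Krt7 at 0.35 (SE 0.22), Krt19 at 0.24 (SE 0.48) and Muc1 at 0.22 (SE 0.32), and the smallest adjusted p was 0.962. The median over the 8 members was 0.23, against -0.01 over all genes. No member was higher in every NEMO/Jnk1 DKO liver than in every Jnk1 KO liver, which 2.52% of all genes were. In whole liver, a change in the number of cells of a type and a change in RNA per cell cannot be told apart.

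Without the doubted arrays, where Jnk1 KO kept 2 livers, Prom1 rose in NEMO/Jnk1 DKO by 1.75 (SE 0.46, limma adjusted p = 0.0446), and 0 of the other 7 members passed. The rule called 5.18% of all genes, and 4.05% in the upward direction. Cd24a differed by 0.89 (SE 0.34, adjusted p = 0.183), Krt19 by 0.77 (SE 0.38, adjusted p = 0.335), Muc1 by 0.58 (SE 0.28, adjusted p = 0.320), Krt7 by 0.45 (SE 0.21, adjusted p = 0.301) and Epcam by 0.32 (SE 0.20, adjusted p = 0.483). The median over the members was 0.51, against -0.01 over all genes. Cd24a and Prom1 were higher in all 3 NEMO/Jnk1 DKO livers than in both Jnk1 KO livers, 2 of 8 members where 16.8% of all genes were. The Jnk1 KO liver that was left out read 6.08 for Prom1, the highest of all 15 arrays. The Prom1 call also moved with Xist. When high Xist with low Y-linked levels was entered as a sex term in the fit of all 15 arrays, Prom1 differed by -0.01 (SE 0.20), and with the doubted arrays also left out by 0.37 (SE 0.24, adjusted p = 0.678), an estimate that rests on NEMO/Jnk1 DKO replicate 3. Among the arrays left then, high Xist occurred in NEMO/Jnk1 DKO alone, so sex and genotype cannot be told apart in its replicates 1 and 2.

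The same question was asked on the Jnk2-null background. In NEMO/Jnk2 DKO against Jnk2 KO, with all arrays as labelled, 0 of 8 members passed, where 0.00502% of all genes did, and at an unadjusted p under 0.05 the counts were 0 of 8 members and 1578 genes. The differences ran from -0.17 for Muc1 (SE 0.32) to 0.24 for Sox9 (SE 0.12, adjusted p = 0.638), with a median of 0.04 against 0.00 over all genes. Sox9 was higher in every NEMO/Jnk2 DKO liver than in every Jnk2 KO liver, 1 of 8 members where 5.28% of all genes were. When the doubted arrays were left out 0 of 8 passed, where 5.85% of all genes did. Cd24a then differed by 0.56 (SE 0.34), Sox9 by 0.32 (SE 0.13, adjusted p = 0.186), Epcam by 0.31 (SE 0.20), Krt19 by 0.27 (SE 0.38) and Krt7 by 0.25 (SE 0.21), and these 5 were higher in all 3 NEMO/Jnk2 DKO livers than in both Jnk2 KO livers, where 16% of all genes were. Prom1 differed by 0.18 (SE 0.46).

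**Figure D2:**
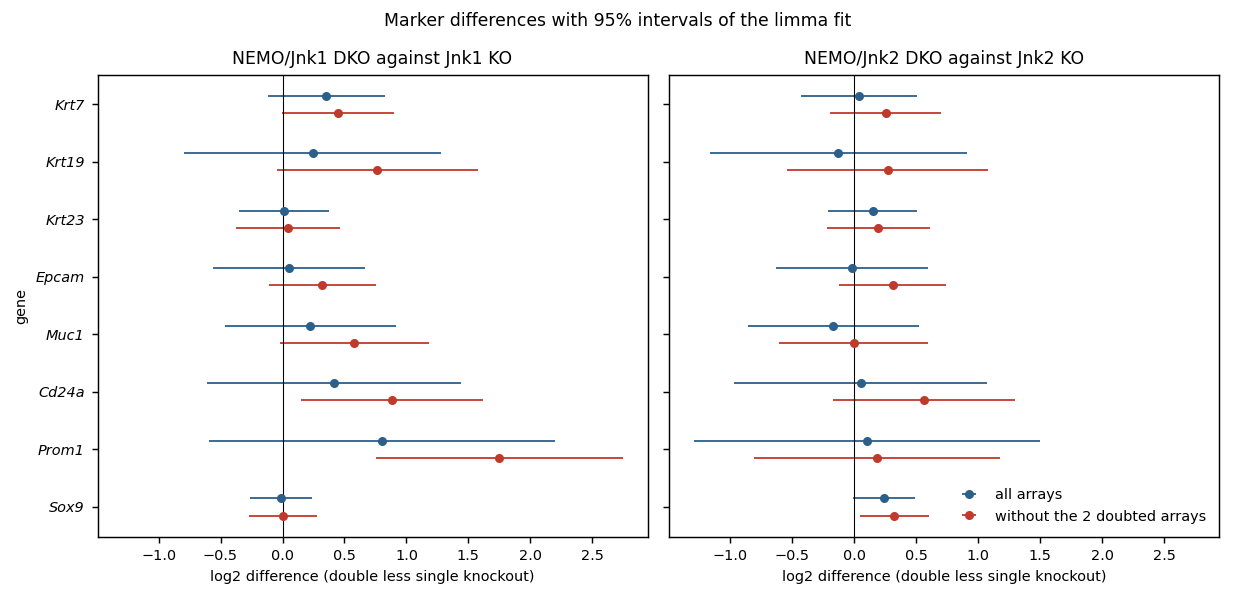
Log2 difference of double less single knockout (horizontal axes) for each marker (vertical axis) on the Jnk1-null (left) and Jnk2-null (right) backgrounds, with 95% intervals of the limma fit, for all arrays (blue) and without the 2 doubted arrays (red). Prom1 on the Jnk1-null background, at 1.75 without the doubted arrays, is the value that passed the test.

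The 2 effects of NEMO loss were also set against each other in a single contrast. As labelled 0 of 8 members and 0% of all genes differed between the backgrounds, with 0 members and 548 genes at an unadjusted p under 0.05. The largest difference among the members was 0.70 for Prom1 (SE 0.92, adjusted p = 1.00). Leaving out the doubted arrays put Prom1 at 1.57 (95% interval 0.16 to 2.97, adjusted p = 0.713) and Sox9 at -0.32 (SE 0.18, adjusted p = 0.822). In that fit 0 of 8 members and 0.01% of all genes were called. Directly between the double knockouts, NEMO/Jnk1 DKO against NEMO/Jnk2 DKO, 0 of 8 members passed, where 0.105% of all genes did. Prom1 differed by 1.47 (SE 0.65, adjusted p = 0.870), Muc1 by 0.51 (SE 0.32) and Cd24a by 0.54 (SE 0.48). No member was higher in every NEMO/Jnk1 DKO liver than in every NEMO/Jnk2 DKO liver, where 7.12% of all genes were. Leaving out the doubted arrays gave 0 of 8 members and 0.321% of all genes.

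Each mutant was next compared with WT, so that these 4 comparisons share the 3 WT livers. In NEMO/Jnk1 DKO, as labelled, 0 of 8 members passed, where 0.0652% of all genes did. All 8 differences were positive, where 40.9% of all genes had a positive one, and at an unadjusted p under 0.05 the counts were 2 of 8 members and 3256 genes. Prom1 differed by 1.61 (SE 0.65, adjusted p = 0.241), Cd24a by 1.17 (SE 0.48, adjusted p = 0.245), Krt19 by 0.66 (SE 0.48, adjusted p = 0.530) and Muc1 by 0.57 (SE 0.32, adjusted p = 0.405). Cd24a and Prom1 were higher in every NEMO/Jnk1 DKO liver than in every WT liver, 2 of 8 where 11.5% of all genes were. For Prom1 this rested in replicate 3 on 3.61 against a highest WT value of 3.58.

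Without the doubted arrays, which belong to neither group but enter the shared estimate of the spread, the same differences came with smaller errors. Cd24a (1.17, SE 0.30, adjusted p = 0.0314) and Prom1 (1.61, SE 0.41, adjusted p = 0.0294) then rose in NEMO/Jnk1 DKO, a call that 7.91% of all genes received, and 4.92% in the upward direction. With 1 NEMO/Jnk1 DKO liver also left out, Cd24a passed whichever liver it was, and Prom1 passed only without replicate 3. Without replicate 1, Cd24a alone passed at 0.69 (adjusted p = 0.0364), where 4.65% of all genes did. Without replicate 2, Krt19 (1.08, adjusted p = 0.0486), Cd24a (1.32, adjusted p = 0.0481) and Muc1 (0.88, adjusted p = 0.0356) passed, where 4.66% of all genes did. Without replicate 3, which leaves the 2 livers with high Xist, Cd24a was at 1.51 and Prom1 at 2.30 (adjusted p = 0.0057 and 2.1e-05), where 7.74% of all genes passed. With the sex term in the fit of all arrays, Prom1 was at -0.02 and Cd24a at 0.36 (SE 0.45, adjusted p = 0.958).

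For NEMO/Jnk2 DKO against WT, 0 of 8 members passed, where 2.63% of all genes did, and 0 of 8 without the doubted arrays, where 10.6% did. All 8 differences were positive again, where 40.3% of all genes had a positive one, and they ran from 0.06 for Muc1 to 0.63 for Cd24a (SE 0.48, adjusted p = 0.537), with Sox9 at 0.31 (SE 0.12, adjusted p = 0.162). Krt7, Sox9 and Cd24a were higher in every NEMO/Jnk2 DKO liver than in every WT liver, 3 of 8 where 11.8% of all genes were. In a fit of these 2 groups alone, Cd24a passed (0.63, adjusted p = 0.0266), where 9.62% of all genes did.

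The single knockouts showed how much of the labelled pattern came through 2 arrays. In Jnk1 KO against WT 0 of 8 members passed, where 0.01% of all genes did, and the median difference was 0.35. With the doubted arrays left out it was 0.04, again with 0 of 8 called, where 0.015% of all genes were. Krt23 was higher in every Jnk1 KO liver than in every WT liver, 1 of 8 where 2.45% of all genes were. In Jnk2 KO against WT 0 of 8 passed, where 0.411% of all genes did, with a median of 0.21 as labelled and -0.03 without the doubted arrays, when 0 of 8 were called and 1.24% of all genes were. As labelled, no member was higher in every Jnk2 KO liver than in every WT liver, where 6.16% of all genes were.

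Averaged over the 8 members and taken relative to the WT mean, the 3 NEMO/Jnk1 DKO livers stood at 1.24, 0.36 and 0.39, and the 3 NEMO/Jnk2 DKO livers at 0.17, 0.29 and 0.27. The Jnk1 KO livers stood at 1.07, 0.02 and 0.10, and the Jnk2 KO livers at -0.09, 0.05 and 0.66, the first and the last of these 6 being the doubted ones. WT livers lay between -0.13 and 0.09. In NEMO/Jnk1 DKO replicates 1, 2 and 3, 8, 2 and 8 of the 8 members exceeded every WT liver, where 24.7%, 22.6% and 26% of all genes did. In NEMO/Jnk2 DKO replicates 1, 2 and 3 the counts were 5, 4 and 7 of 8, where 24.5%, 24.7% and 23.1% of all genes did. In the doubted Jnk1 KO replicate 1 and Jnk2 KO replicate 3 they were 8 and 7 of 8, where 28.7% and 24.6% of all genes did, and in the other single knockouts they were 0 to 3. The NEMO/Jnk1 DKO livers therefore differed more among themselves than the NEMO/Jnk2 DKO livers did in these values.

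Over the 15 livers, Krt19 and Muc1 followed each other most closely (Pearson r = 0.97, Spearman rho = 0.83, and r = 0.90 without the 2 arrays farthest from the Krt19 median). Next came Krt19 with Cd24a (r = 0.90, rho = 0.64), Cd24a with Muc1 (r = 0.87, rho = 0.65) and Epcam with Krt19 (r = 0.87, rho = 0.90). Cd24a with Epcam (r = 0.86, rho = 0.71) and Cd24a with Krt7 (r = 0.82, rho = 0.73) followed, and r exceeded 0.8 in 6 of 28 pairs. Without the 2 arrays farthest from the Cd24a median, r was 0.74 for Cd24a with Krt19 and 0.67 for Cd24a with Muc1. Over the 13 livers left without the doubted arrays, 7 of 28 pairs did, with Krt19 and Muc1 at 0.96. Sox9 and Krt23 were the least like the others, with median r to the other members of 0.39 and 0.35 (0.37 and 0.36 without the doubted arrays). These values are descriptions, since the arrays share groups and the 3 high arrays weigh most in them.

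**Figure D3:**
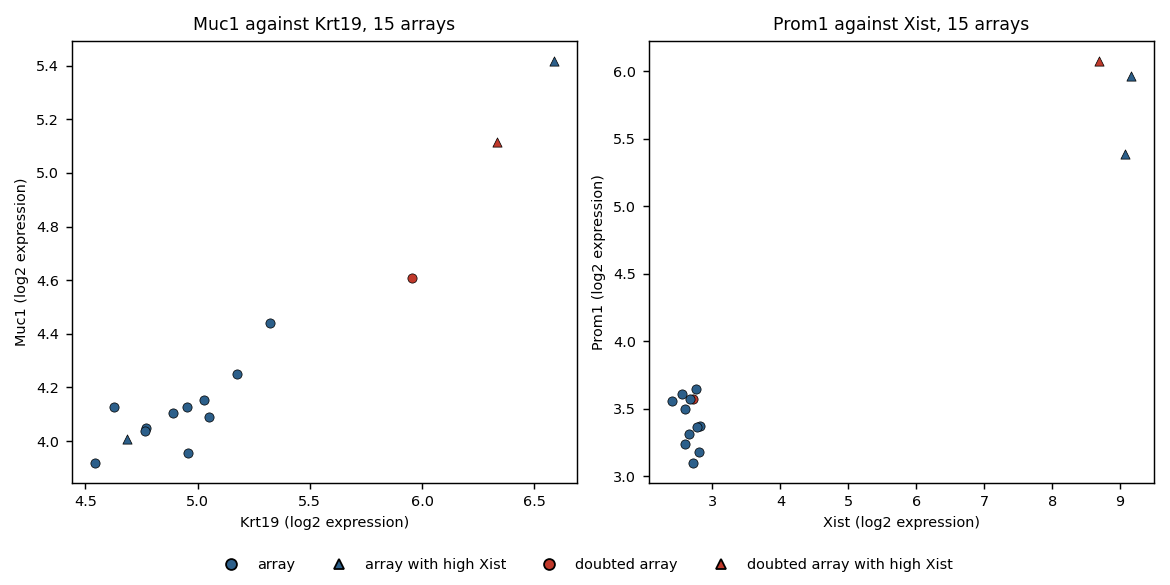
Muc1 against Krt19 (left) and Prom1 against Xist (right), both in log2 expression, with 1 point for each of 15 livers, red for the 2 doubted arrays and triangles for the arrays with high Xist. Muc1 climbs with Krt19 along a line that NEMO/Jnk1 DKO replicate 1 and the doubted arrays extend, and Prom1 falls into 3 livers at 5.39 to 6.08 and 12 at 3.10 to 3.65.

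The genes most like each member were sought among 11947 genes over the same 15 arrays. For Krt19 they were Ano1 (r = 0.92), a calcium-activated chloride channel, Cav1 (r = 0.91), which coats caveolae, and the small proteoglycan Ogn (r = 0.90). For Muc1 they were Abi3bp (r = 0.93), Ogn (r = 0.91) and Ano1 (r = 0.88), and for Epcam they were Cdc42ep3 (r = 0.91), Ano1 (r = 0.91) and the laminin chain Lamb2 (r = 0.90). Cd24a was most like Cdc42ep3 (r = 0.93), the matrix protein Fbln1 (r = 0.93) and Fmo2 (r = 0.92), and Krt7 was most like the basement membrane collagen Col4a5 (r = 0.88), Ltbp3 (r = 0.85) and Cavin1 (r = 0.85). For Prom1 they were Cyp2b13 (r = 0.98), a cytochrome P450 that is predominant in female mouse liver, the peroxisomal oxidase Hao2 (r = 0.98) and Xist (r = 0.97). Sox9 was most like Tmem141 (r = 0.94), Gdpd1 (r = 0.88) and Banf1 (r = 0.87), and Krt23 like Hnmt (r = 0.79), Atg12 (r = 0.79) and Agmat (r = 0.77). Without the doubted arrays, r for these named pairs ran from 0.77 to 0.98.

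A wider list of 26 bile duct epithelium genes, of which 24 were measured, held keratins, channels, transporters and junction proteins. As labelled, 0 of 24 passed in either comparison of double with single knockout. Once the doubted arrays were left out, 6 of 24 rose and 0 fell in NEMO/Jnk1 DKO against Jnk1 KO, and 5 of 24 rose and 0 fell in NEMO/Jnk2 DKO against Jnk2 KO, where 5.18% and 5.85% of all genes were called. The median differences were 0.14 and 0.22, where those over all genes were -0.01 in both. Krt18 (1.52 and 1.07) and Krt8 (1.51 and 1.11) rose in both comparisons. They form the keratin pair of hepatocytes as well as of duct cells, so they do not mark ducts alone. Bicc1, an RNA-binding protein of renal and biliary epithelium, rose in both (1.16 and 0.86), the tetraspanin Tspan8 in the first (1.37, adjusted p = 0.0119) and the epithelial transcription factor Elf3 in the second (1.10, adjusted p = 0.0141).

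Some genes of this list were also read liver by liver. Krt8 read 10.93 to 11.64 in the 6 double knockouts and 9.31 to 10.30 in the 7 other livers that were not doubted, and 11.20 and 11.13 in the doubted arrays. Bicc1 read 5.66 to 6.36 in the double knockouts and 4.67 to 5.20 in those 7 livers, and Tspan8 read 4.59 to 5.89 in the double knockouts and 3.74 to 4.43 in those 7. The ranges did not overlap for these 3 genes, which were picked by their change. For Elf3 they did, at 4.07 to 5.22 in the double knockouts and 3.53 to 4.30 in those 7 livers. Of all genes, 4.68% were higher in all 6 double knockouts than in all of those 7 livers. Bicc1 and Tspan8, like Krt19 and Muc1, were higher in NEMO/Jnk1 DKO replicate 1 and the 2 doubted arrays than in any other liver.

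Signals of the progenitor and ductular response were followed in a list of 20 ligands, receptors and targets, of which 19 were measured. With the doubted arrays left out, 2 rose and 0 fell in NEMO/Jnk1 DKO against Jnk1 KO, and 2 rose and 1 fell in NEMO/Jnk2 DKO against Jnk2 KO, beside 5.18% and 5.85% of all genes called. As labelled 0 of 19 passed in both. Hgf, the hepatocyte growth factor made by stellate cells, rose in both (0.96, adjusted p = 0.0013, and 0.89, adjusted p = 0.0023), and its receptor Met fell in the second (-0.66, adjusted p = 0.0378), with -0.52 (adjusted p = 0.108) in the first. Ccn1, a matrix protein and YAP target, rose in the first (1.13, adjusted p = 0.0098), with 0.32 (adjusted p = 0.533) in the second. It read 6.73 to 7.63 in NEMO/Jnk1 DKO livers and 6.20 and 5.84 in the Jnk1 KO livers that were not doubted. WT livers read 6.36, 6.75 and 6.95 for Ccn1, above those Jnk1 KO livers and overlapping NEMO/Jnk1 DKO. Hes1, a target of Notch signalling, rose in the second (1.37, adjusted p = 0.0396), with 0.40 (adjusted p = 0.675) in the first, and these differences between backgrounds were not tested. Against WT, Hes1 rose in NEMO/Jnk2 DKO with all arrays in the fit (1.55, adjusted p = 0.0462), 1 of 19 where 2.63% of all genes passed. Hes1 read 7.22, 7.62 and 6.13 in NEMO/Jnk2 DKO livers and 5.35, 5.19 and 5.75 in WT livers. Single knockouts that were not doubted read 5.16 and 6.06 in Jnk2 KO and 6.42 and 6.02 in Jnk1 KO.

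Of 11 other progenitor markers, all measured, 1 rose on the Jnk1-null and 2 on the Jnk2-null background without the doubted arrays (5.18% and 5.85% of all genes were called), and 0 as labelled. The count of 1 in 11 is close to the share over all genes. Cd44, the hyaluronan receptor, rose on both (1.30 and 1.19), and Clu, which encodes clusterin, on the Jnk2-null one (0.35, adjusted p = 0.0463). Cd44 read 5.38 to 6.05 in the double knockouts and 4.33 to 4.67 in the 7 other livers not doubted, and 5.85 and 5.79 in the doubted arrays. Cd44 is also carried by macrophages and other blood cells. It is 1 of the receptors of osteopontin, whose own gene was not analysed here. Among 8 such receptors, all measured, 3 rose on each background without the doubted arrays: Cd44, the integrin subunit Itga4 (0.99 and 1.03) and the integrin subunit Itgb5 (0.49 and 0.64). The shares called over all genes were again 5.18% and 5.85%, and as labelled 0 of 8 passed.

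Marker lists of other cell types were read in the same livers. Mean levels of 8 macrophage and monocyte genes were taken relative to the WT mean. They lay between 1.36 and 1.83 in the 6 double knockouts and at 1.75 and 2.04 in the doubted arrays. In the other 7 livers they lay between -0.06 and 0.03. The 8 genes include Mmp12, by which the doubted arrays were picked, so part of this rise was set by that choice. Means of 7 stellate cell and myofibroblast genes lay between 0.76 and 1.17 in the double knockouts, at 1.26 and 1.37 in the doubted arrays, and between -0.38 and 0.07 in the other 7. Without the doubted arrays, 6 of 8 macrophage genes rose on both backgrounds, and 4 of 7 stellate cell genes on the Jnk1-null and 3 of 7 on the Jnk2-null one, where 5.18% and 5.85% of all genes were called. NEMO/Jnk1 DKO replicate 1 stood at 1.46 and 1.17 in these lists, and its mean of 5 mesothelial genes was 0.51, the highest of the 15 livers. In the mesothelial list the doubted arrays stood at 0.16 and 0.34 and NEMO/Jnk2 DKO livers at 0.16 to 0.44. NEMO/Jnk1 DKO replicates 2 and 3 stood at -0.17 and -0.15 there, and WT livers at -0.16 to 0.15. Mesothelial cells also carry Krt19 and Krt7, and their part in the levels of those genes was not tested. Means of 6 hepatocyte genes lay between -0.11 and 0.09 in all livers, and those of 6 pancreatic acinar genes between -0.29 and 0.07.

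**Figure D4:**
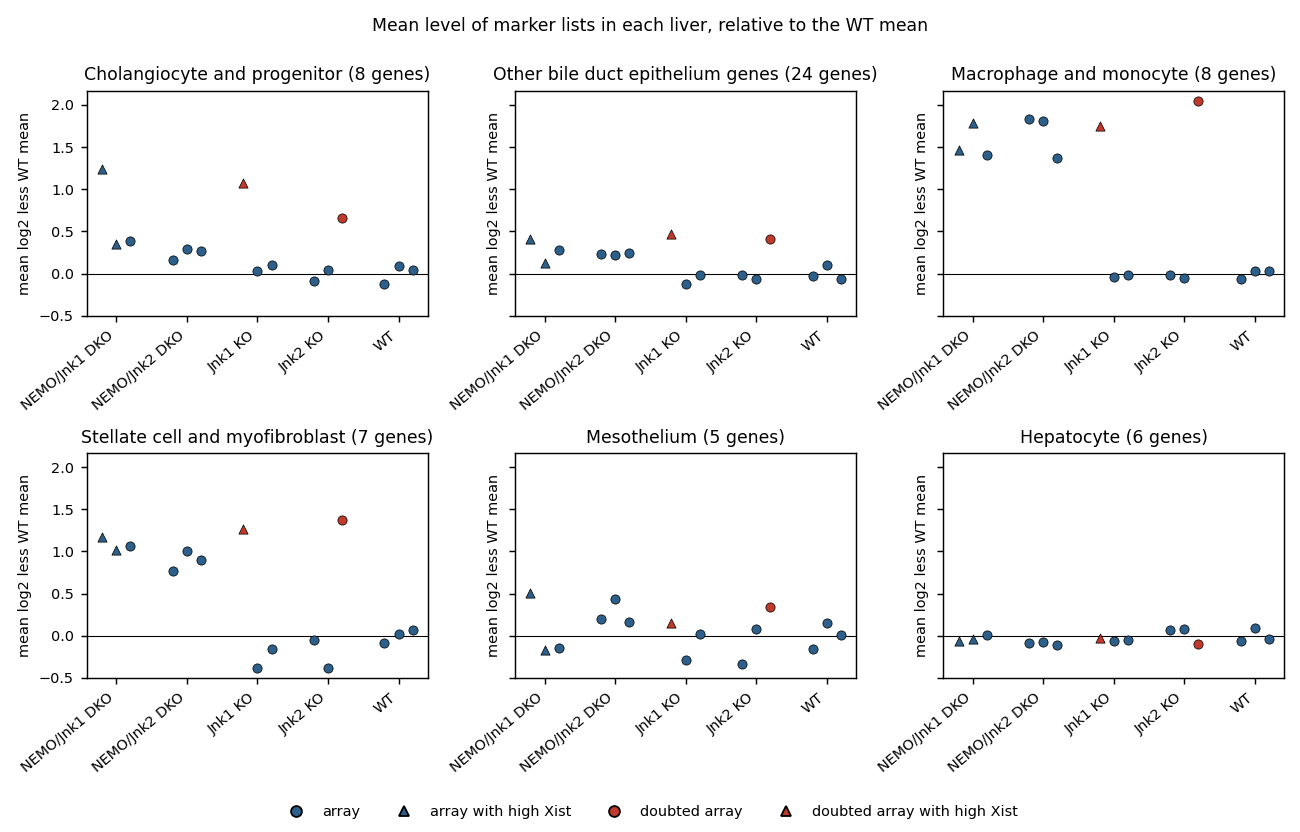
Mean log2 level of 6 marker lists in each liver relative to the WT mean (vertical axes), by group (horizontal axes). Red points are the 2 doubted arrays and triangles the arrays with high Xist. The macrophage list holds Mmp12, by which the doubted arrays were picked. Macrophage and stellate cell means are raised in all 6 double knockouts and both doubted arrays, whereas the mean of the 8 cholangiocyte and progenitor markers is highest in NEMO/Jnk1 DKO replicate 1 and the doubted arrays, and hepatocyte means stay within -0.11 and 0.09.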

How the data were processed

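The authors deposited log2 expression values made with RMA, a method of background correction, quantile normalization and probe set summary (version not given), per the submitters' processing notes. Their range was taken to mean base 2. The platform's gene table gave 1 symbol to 21789 of 35556 probe sets, several to 1621 and none to 12146. Of probe sets with 1 symbol, the one with the highest mean stood for a gene, which left 19938 genes. Symbols were joined to RefSeq loci and promoters (GRCm38.p6). No array pair was identical, and each array is 1 mouse by its label.

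Each comparison was a contrast in limma 3.58.1 (R 4.3.3; lmFit, eBayes) on the 15 arrays, with a mean for each group (residual degrees of freedom 10, prior 3.75). Calls were made at an adjusted p under 0.05 (Benjamini-Hochberg, over all genes). The fit was tested on simulated data. Figures used Python 3.11.15 and matplotlib 3.10.9. The members and lists were chosen with earlier results of these data known. Named genes are the members, the 3 genes with the highest r to each (provisional models, small RNA genes and olfactory receptors left out), and up to 4 called genes of each wider list with the largest change; Hes1 against WT was named after its value was seen. Alternatives were other fits, normalizations, filters, a sex term, a replicate block and left-out arrays. Whether replicate numbers pair the livers was checked on residuals: over 30 pairs of the same number r ran from -0.39 to 0.30, so they were not treated as pairs.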

Additional observations from a re-analysis of the deposited data

How the results depend on the processing

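Of 222 recomputed counts of members called, 214 did not change. Without the 2 doubted arrays the count was 1 in NEMO/Jnk1 DKO against Jnk1 KO and 2 in NEMO/Jnk1 DKO against WT, and in a fit of the compared groups alone it was 1 in NEMO/Jnk2 DKO against WT. Leaving out arrays in turn, with or without the doubted ones, gave counts of 0 to 2 in NEMO/Jnk1 DKO against Jnk1 KO and 0 to 3 against WT, where leaving out Jnk1 KO replicate 1 alone gave 1 (Prom1). The replicate block gave 0 members in all 8 comparisons.

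Of 912 recomputed member differences, 42 changed sign, all of them uncalled, and 13 became called. In NEMO/Jnk1 DKO against Jnk1 KO, Krt23 was -0.042 with array weights, -0.0014 after quantile normalization and -0.0022 after centring. Sox9 was 0.0038 without the doubted arrays, 0.0093 with the sex term, and 0.11 both without the arrays with high Xist and with the sex term without the doubted arrays. With the sex term Krt19 was -0.071, Epcam -0.11, Prom1 -0.014 and Muc1 -0.0023, and against WT Prom1 was -0.024. Left-out arrays gave ranges of -0.29 to 1.19 for Krt19, -0.063 to 0.061 for Sox9, -0.16 to 0.43 for Epcam, -0.067 to 1.22 for Cd24a, -0.19 to 0.25 for Krt23 and -0.18 to 0.89 for Muc1.

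In NEMO/Jnk2 DKO against Jnk2 KO, Epcam was 0.085 with array weights and 0.31 without the doubted arrays, where Krt19 was 0.27, and both were the same with the sex term added. Left-out arrays gave -0.15 to 0.25 for Krt7, -0.40 to 0.27 for Krt19, -0.19 to 0.31 for Epcam, -0.24 to 0.56 for Cd24a and -0.014 to 0.19 for Prom1. Against WT they gave -0.013 to 0.24 for Krt19 and -0.012 to 0.14 for Muc1. The cause of these changes was not tested, beyond the smaller number of arrays where arrays were left out.

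The precision is limited by 3 arrays in each group and by the 2 arrays that go against their genotype labels. It is also limited by Xist levels, which go against the male label in 3 arrays and move with NEMO/Jnk1 DKO. Members near the dim end of the values limit it too: Cd24a, Krt23 and Prom1 passed 4.09 in 6 arrays or fewer. The arrays measure RNA of whole liver, and Spp1 was not analysed here.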

Other observations

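Tnfrsf12a, the receptor of the cytokine TWEAK, which is known to drive the expansion of hepatic progenitor cells in mice, was looked at after its values were seen. NEMO/Jnk1 DKO livers averaged 7.42 for this gene, NEMO/Jnk2 DKO livers 7.46 and WT livers 6.04 (log2 values, n = 3 each). The differences from WT were 1.38 (limma adjusted p = 0.203) and 1.42 (adjusted p = 0.146) with all arrays. Without the doubted arrays both passed (adjusted p = 0.0298 and 0.0206), where 7.91% and 10.6% of all genes did. Against the single knockouts, without the doubted arrays, it differed by 1.47 in NEMO/Jnk1 DKO (SE 0.40, adjusted p = 0.0505) and by 0.25 in NEMO/Jnk2 DKO (SE 0.40, adjusted p = 0.839). Jnk2 KO, at 7.21 in its 2 remaining livers, lay nearer to NEMO/Jnk2 DKO than to WT, and Jnk1 KO, at 5.96, lay nearer to WT. The difference between the backgrounds was not tested for this gene.

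The integrin subunit Itgav, which pairs with Itgb5 in an osteopontin receptor, was also named after its values were seen. It averaged 7.66 in NEMO/Jnk2 DKO, against 7.15 in WT. The difference passed with all arrays in the fit (0.52, SE 0.12, limma adjusted p = 0.0356), where 2.63% of all genes did. In NEMO/Jnk1 DKO it averaged 7.50, with a difference from WT of 0.35 (SE 0.12, adjusted p = 0.164). This difference passed without the doubted arrays (adjusted p = 0.0181), where 7.91% of all genes did.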
